A study of Mus musculus with 2 samples.

Results

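The 4 long noncoding RNAs described here, Malat1, Neat1, Kcnq1ot1 and Snhg11, are best known as transcripts that stay in the nucleus, and they were chosen by symbol from the 32245 gene symbols counted in mouse heart nuclei. All 4 symbols were present, each as 1 counted gene. Their levels were described by nucleus class, by library and by the mitochondrial share of each nucleus. Malat1 alone made up 22.6% of the non-mitochondrial unique molecular identifiers (UMIs, 1 per captured RNA molecule) in the CF-KI library and 30.2% in the Control library. Both heart libraries came from male C57Bl6/J mice aged 3.5 months that carried Tcf21-MerCreMer, a tamoxifen-inducible Cre recombinase expressed from the fibroblast gene Tcf21, and both were given tamoxifen. The CF-KI library carried the A350V allele of Nlrp3, the sensor protein of an inflammasome, on both copies, and the Control library carried both wild-type copies. The submitters state that the mutant allele is meant to act in fibroblasts and that Nlrp3 is silenced in cells of this model without Cre. Each group was 1 library, how many hearts went into each is not stated in the labels, and so no difference below has a replicate check or a p-value.

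Malat1 gathers in nuclear speckles, the compartments in which splicing factors are stored. Neat1 is the scaffold of paraspeckles, nuclear bodies that hold RNA-binding proteins and certain RNAs. Kcnq1ot1 is transcribed antisense from within the potassium channel gene Kcnq1, from the paternal copy in many tissues, and silences neighbouring imprinted genes in cis. Snhg11 is a host gene of small nucleolar RNAs and is best known from neurons. In single-nucleus data from any tissue Malat1 is usually the most abundant transcript, and it is often read as a sign of how much nuclear RNA a droplet holds.

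In the GENCODE vM21 annotation of GRCm38, Malat1 (ENSMUSG00000092341) lies at chr19:5795690-5802672 on the minus strand and Neat1 (ENSMUSG00000092274) lies close by at chr19:5824708-5845478, also on the minus strand. The longest annotated forms, Malat1-201 of 6983 bases and Neat1-201 of 20771 bases, each consist of 1 exon, as does Kcnq1ot1-201 of 93092 bases. Kcnq1ot1 (ENSMUSG00000101609) lies at chr7:143203458-143296549 on the minus strand, inside Kcnq1, which runs from 143106362 to 143427042 on the plus strand. Snhg11 (ENSMUSG00000044349) lies at chr2:158375638-158386145 on the plus strand. Its transcript Snhg11-201 has 5 exons and 5864 bases, and GENCODE lists the gene as protein coding whereas RefSeq lists it as a long noncoding RNA.

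The libraries were primed on runs of A, so the A-rich stretches of the first 3 RNAs are shown. Malat1 and the long form of Neat1 do not end in an ordinary poly(A) tail; their ends are known to form a triple helix between U-rich stretches and a genome-encoded A-rich tract. A short form of Neat1 from the same start is polyadenylated, and gene counts do not tell the forms apart. The lines for Malat1 and for the long form of Neat1 show the region of that tract, in GRCm38 and on the transcribed strand. Capitals mark first a string of 16 bases that both hold and then the A-rich tract. For Kcnq1ot1 the capitals mark its longest run of A, 41 bases inside the transcript and 23487 bases before its annotated end.
Malat1, bases 6600 to 6725 of Malat1-201, chr19:5795948-5796073: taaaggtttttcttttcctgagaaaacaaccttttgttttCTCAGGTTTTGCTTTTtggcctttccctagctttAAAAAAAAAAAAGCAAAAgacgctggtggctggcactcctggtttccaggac
Neat1, bases 20673 to 20771 of Neat1-201, chr19:5824708-5824806: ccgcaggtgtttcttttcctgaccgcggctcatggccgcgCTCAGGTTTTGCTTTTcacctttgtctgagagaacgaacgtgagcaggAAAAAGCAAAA
Kcnq1ot1, bases 69525 to 69644 of Kcnq1ot1-201, chr7:143226906-143227025: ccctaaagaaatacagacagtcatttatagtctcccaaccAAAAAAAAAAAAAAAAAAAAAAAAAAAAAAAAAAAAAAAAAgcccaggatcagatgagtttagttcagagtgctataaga
The shared string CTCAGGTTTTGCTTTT was searched on the transcribed strand and was found in the last 400 bases of 2 of 7040 transcripts of 5000 bases or more (0.0284%). These 2 are Malat1-201 and Neat1-201 themselves, from whose ends the string was taken, so their hits were fixed in advance. A run of 12 or more A was present in Malat1-201, where the longest run was 12 bases, and in Kcnq1ot1-201, which held 8 such runs. It was absent from Neat1-201, whose longest run was 7 bases, and from Snhg11-201, whose longest was 8. Of all 141767 annotated transcripts 4.07% held such a run, and 19.2% of those of a length similar to that of Malat1-201 did. Because priming sites and lengths differ so much between the 4 RNAs, their levels are compared between nuclei and not with each other.

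After removal of predicted doublets and of barcodes with under 200 genes, 12681 CF-KI and 10858 Control nuclei remained, with medians of 810 and 1046 non-mitochondrial UMIs. Mitochondrial RNA made up 20.6% of the UMIs of the kept CF-KI nuclei and 6.72% in Control. The CF-KI library lost 15.3% of its barcodes as predicted doublets and the Control library 3.02%, and 46 barcode sequences occurred in both. Nlrp3 itself was counted 34 times in CF-KI and 19 times in Control, with 6 and 0 UMIs in fibroblast-like nuclei and 8 and 18 in macrophage-like nuclei, and the A350V change cannot be read from these counts. Both libraries were clustered together into 18 clusters without the 4 RNAs, and clusters were named from marker genes. Cardiomyocyte-like nuclei numbered 4167 in CF-KI and 2531 in Control, and fibroblast-like nuclei 3764 and 3573. In 8 more classes each library gave 50 nuclei or more: endothelial-like (1462 and 914), endocardial-like (1406 and 1150), macrophage-like (518 and 980), mesothelial-like (550 and 667), lymphatic endothelial-like (156 and 102), adipocyte-like (88 and 165), B cell-like (75 and 156) and an unnamed cluster led by Myh11 and Lin7a with pericyte and smooth muscle markers (316 and 480). Airway epithelial-like nuclei were found in Control only (125). Erythroid-like barcodes (84 and 5) and platelet or megakaryocyte-like barcodes (95 and 10) were mostly from CF-KI. The fibroblast-like class is split by library: cluster 2 held 2630 CF-KI and 118 Control nuclei, cluster 1 held 500 and 2674, and cluster 7 held 634 and 781.

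A level is given below as the share of a gene in the non-mitochondrial UMIs summed over a class and library, so mitochondrial RNA does not enter it. Brackets hold 95% intervals (exact Clopper-Pearson for shares, conditional exact binomial for ratios), which cover counting error only and are much narrower than the spread between nuclei. A difference between libraries is given as the log2 ratio of CF-KI over Control, negative where CF-KI is lower. Since Malat1 takes up so much of the denominator, ratios of the other RNAs are also given with Malat1 left out of it.

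Malat1 was highest in cardiomyocyte-like nuclei and lowest of these 10 classes in endothelial-like nuclei in both libraries, and its share was lower in CF-KI than in Control in all 10 classes compared. In cardiomyocyte-like nuclei it took 34.2% of non-mitochondrial UMIs in CF-KI and 44.8% in Control. In adipocyte-like nuclei it took 26.8% and 30.4%, and in mesothelial-like nuclei, the lining cells of the heart surface, 19.5% and 26.5%. The Myh11-led cluster stood at 18.2% in CF-KI and 31.2% in Control, so it ranked next to cardiomyocyte-like nuclei in Control and behind fibroblast-like nuclei in CF-KI. Macrophage-like nuclei had 20.04% and 20.8%, fibroblast-like nuclei 19.04% and 20.8%, endocardial-like nuclei 16.3% and 22.1%, and lymphatic endothelial-like nuclei 15.3% and 19.7%. Airway epithelial-like nuclei of Control had 23.6% and platelet or megakaryocyte-like barcodes of CF-KI 16.0%. The low end held B cell-like nuclei with 7.66% and 15.4% and endothelial-like nuclei with 6.13% and 9.64%. Neighbours in this order whose intervals overlapped were macrophage-like and fibroblast-like in Control, and endocardial-like and platelet or megakaryocyte-like in CF-KI. Erythroid-like barcodes of CF-KI, where haemoglobin mRNA took 85.9% of UMIs, had 1.06% Malat1. Haemoglobin stays in that denominator and lowers the share, so it cannot be ranked with the shares of the nucleus classes.

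**Figure D1:**
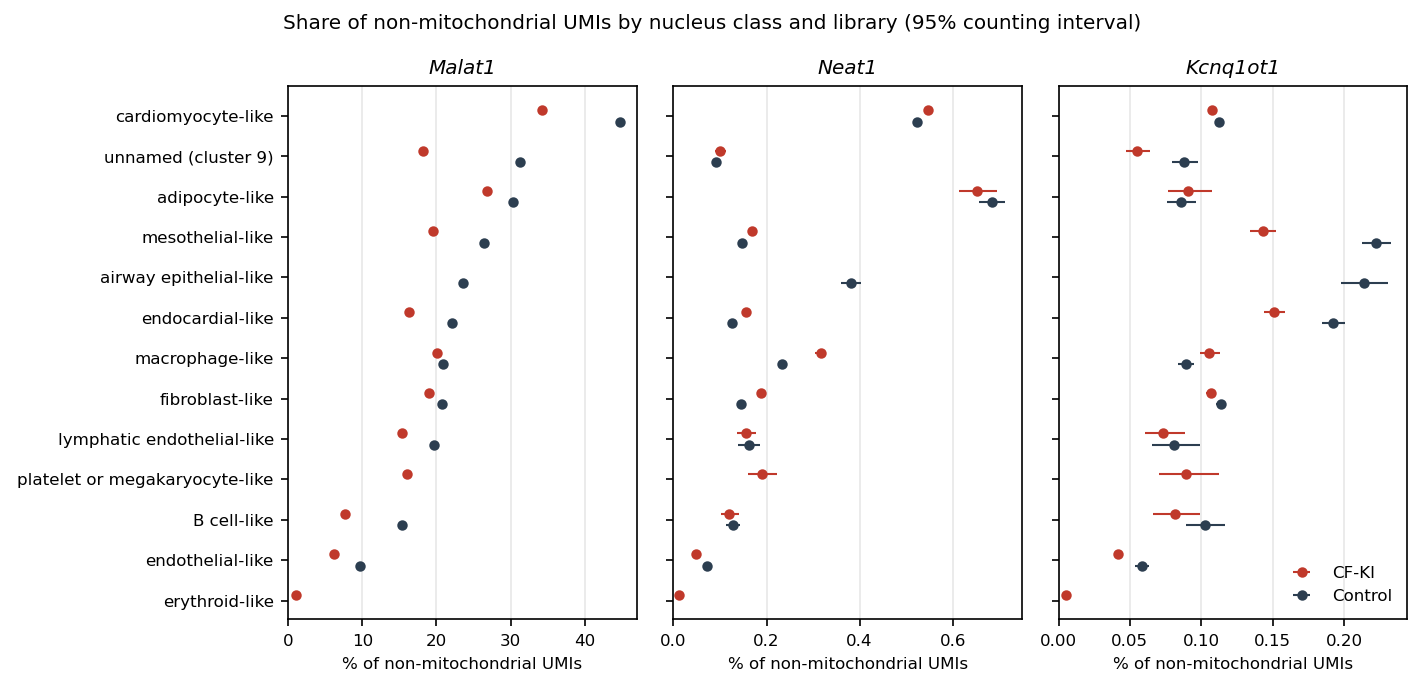
Share of Malat1, Neat1 and Kcnq1ot1 in the non-mitochondrial UMIs of each class, 1 point per library with its 95% counting interval and a separate linear axis for each RNA. Among the classes compared between libraries Malat1 runs from 6.13% in endothelial-like to 44.8% in cardiomyocyte-like nuclei. Erythroid-like barcodes of CF-KI, filled mostly by haemoglobin, lie lower, at 1.06%. Neat1 is highest in adipocyte-like and cardiomyocyte-like nuclei, and Kcnq1ot1 is highest in mesothelial-like, airway epithelial-like and endocardial-like nuclei.

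Between libraries the log2 ratio of Malat1 was −0.39 in cardiomyocyte-like nuclei, with an interval that rounds to the same value, and −0.13 (−0.13 to −0.12) in fibroblast-like nuclei. Among nuclei at most 5% mitochondrial the cardiomyocyte-like ratio was −0.13, and without cluster 2, nearly all of it from CF-KI, the fibroblast-like ratio was −0.37. The classes with the largest differences were B cell-like, with a ratio of −1.01 (−1.04 to −0.97), the Myh11-led cluster with −0.78 (−0.80 to −0.77) and endothelial-like nuclei with −0.65 (−0.67 to −0.64). Macrophage-like nuclei differed least, by −0.056 (−0.065 to −0.047). With 1 library in each group a gene was counted as past the threshold when its shares differed by more than 1.5-fold, among genes with at least 100 UMIs in the class. Malat1 was past it, and lower in CF-KI, in B cell-like nuclei, where 20.8% of 366 genes were lower by that much, in the Myh11-led cluster (11.9% of 1123 genes) and in endothelial-like nuclei (7.53% of 5023 genes). In cardiomyocyte-like nuclei none of Malat1, Neat1 and Kcnq1ot1 was past 1.5-fold, beside 6.42% of 8272 genes lower and 25.9% higher in CF-KI. That none was past it depends on the denominator, which Malat1 itself largely fills in this class. With Malat1 left out of it the ratio of Malat1 was −0.64, past 1.5-fold and lower in CF-KI, beside 16.6% of genes lower by that much. It was also past 1.5-fold under median-of-ratios factors (−0.61) and with each nucleus thinned to 300 UMIs (−0.70), and only just under TMM (−0.59). Under TMM more genes were lower by that much than with the main scaling, as counted in the last section. Under median-of-ratios factors and with thinning the share of all genes was not counted, so those calls have no background beside them. In fibroblast-like nuclei none of Malat1, Neat1 and Kcnq1ot1 was past 1.5-fold, beside 6.47% of 8774 genes lower and 9% higher. Snhg11 had under 100 UMIs in every class and could not be counted here.

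Malat1 took a small share in cardiomyocyte-like nuclei rich in mitochondrial RNA, of which the CF-KI library had many more. Of the cardiomyocyte-like nuclei 60.2% in CF-KI and 12.9% in Control were over 5% mitochondrial, and 1281 and 145 nuclei were over 50%. In CF-KI the Malat1 share went from 45.1% in nuclei at most 1% mitochondrial (107 nuclei) to 42.9% over 1 to 5%, 33.0% over 5 to 20%, 6.47% over 20 to 50% and 2.14% over 50%. In Control the shares in the same order were 47.8%, 40.7%, 23.6%, 12.8% and 5.14%. Each step was lower than the step before in both libraries. At matched mitochondrial share the log2 ratio of the libraries changed sign along the way: −0.084 in nuclei at most 1%, 0.076 over 1 to 5%, 0.48 (0.47 to 0.50) over 5 to 20%, −0.98 (−1.01 to −0.95) over 20 to 50% and −1.26 (−1.31 to −1.22) over 50%. The number of Malat1 molecules per nucleus was smaller along the same steps. The median nucleus of CF-KI held 964 Malat1 UMIs at most 1% mitochondrial, 733 over 1 to 5%, 388 over 5 to 20%, 7 over 20 to 50% and 5 over 50%. In Control the medians were 1142, 616, 151.5, 18 and 8. The median non-mitochondrial total went from 2279 to 394 UMIs in CF-KI and from 2407.5 to 486 in Control.

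**Figure D2:**
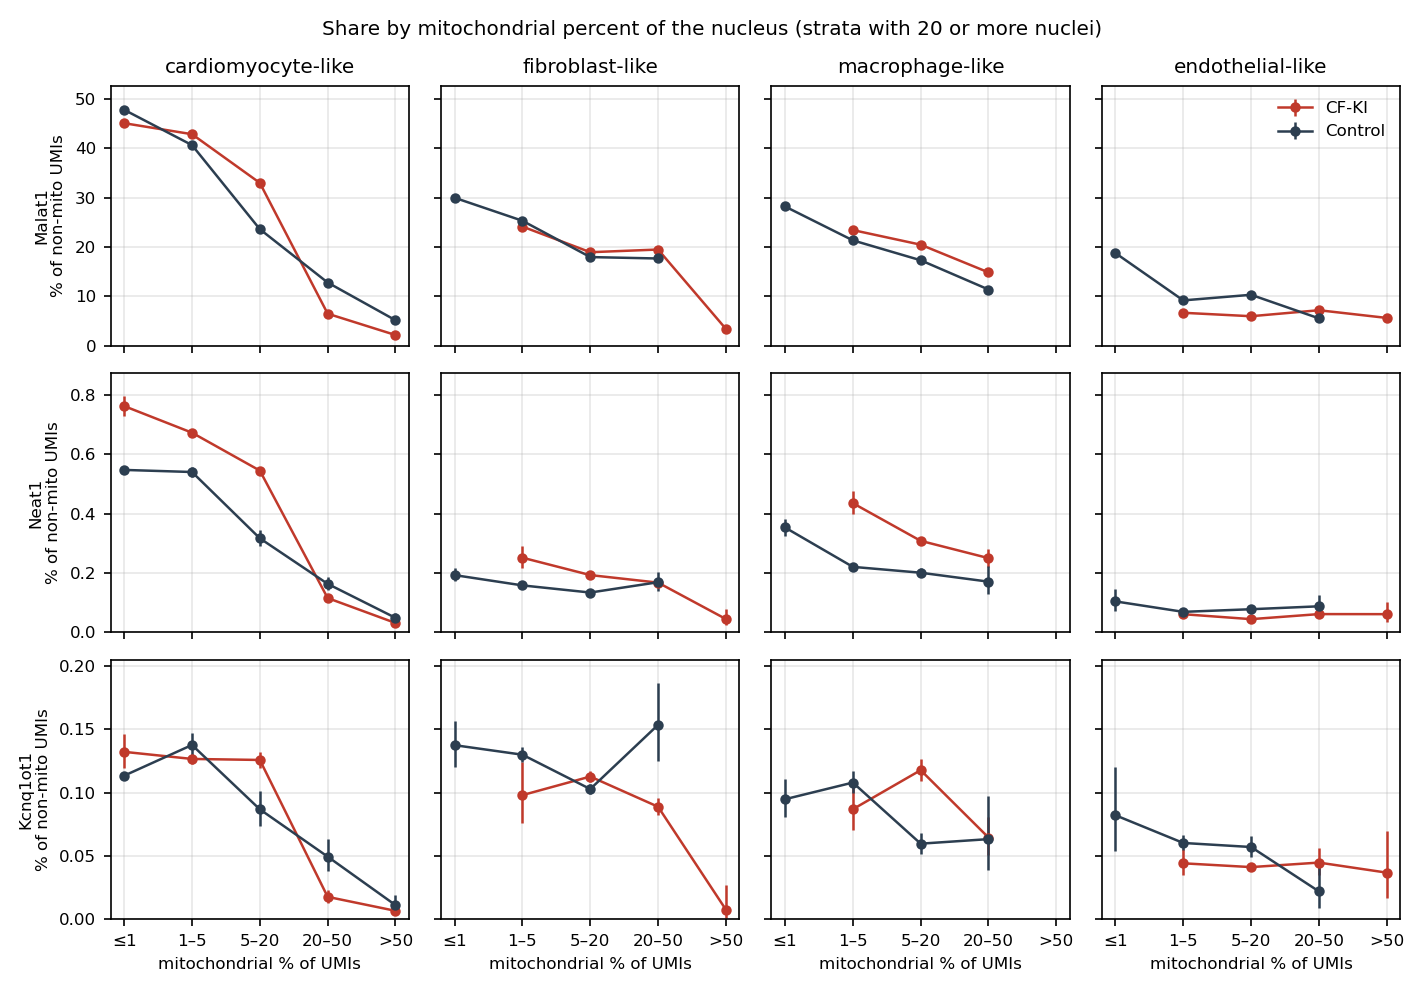
Share of Malat1, Neat1 and Kcnq1ot1 in non-mitochondrial UMIs (rows, linear axes) against the mitochondrial percent of the nucleus in 5 ranges, for 4 classes (columns). Points are class and library sums with 95% counting intervals, and ranges with under 20 nuclei are not drawn. The cardiomyocyte-like curves go down steeply over 5%, to 2.14% Malat1 in CF-KI and 5.14% in Control over 50%. Fibroblast-like nuclei of 20 to 50% still hold 19.5% and 17.7%, but in CF-KI they too are far lower over 50%, a range not drawn for Control.

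Other RNAs took a larger share at the mitochondria-rich end of the same axis than at its other end. The summed share of 10 abundant cardiomyocyte mRNAs, such as Myh6 and Tnnt2, went from 2.41% in CF-KI cardiomyocyte-like nuclei at most 1% mitochondrial to 10.3% in those over 50%, and from 1.78% to 11.4% in Control. Ribosomal protein mRNAs went from 0.756% to 4.52% and from 0.416% to 3.65%. Haemoglobin mRNA, which cardiomyocytes do not make, went from 0.0638% to 0.373% and from 0.0218% to 0.178%. In Control these did not rise at each step. Haemoglobin there was highest over 5 to 20%, at 0.480%, and stood at 0.244% over 20 to 50%. Ribosomal protein mRNAs of Control were at 3.63% over 5 to 20% and 3.26% over 20 to 50%. The mitochondria-rich cardiomyocyte-like nuclei lay largely in cluster 5, led by Acta1 and Xirp2, with a median of 63.4% mitochondrial UMIs in CF-KI (1751 nuclei) and 49.7% in Control (247). There Malat1 took 5.96% and 7.96%. In cluster 0, with medians of 3.58% and 0.359%, it took 41.5% and 47.0%, a log2 ratio of −0.18. In cluster 14, led by the atrial genes Sln, Nppa and Myl4, it took 18.3% in 59 CF-KI nuclei and 36.7% in 115 Control nuclei, a ratio of −1.01; the median mitochondrial percent there was 28.0 and 1.46. How much cytoplasm, damage or free RNA each barcode held was not tested.

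The spread of Malat1 over single cardiomyocyte-like nuclei had the same form. The 10th, 50th and 90th percentiles of its share were 0.677%, 28.7% and 48.4% in CF-KI and 9.64%, 43.7% and 57.4% in Control. Nuclei with under 5% Malat1 made up 39.0% of the class in CF-KI (1627 nuclei) and 9.17% in Control (232). In fibroblast-like nuclei the percentiles were 10.9%, 20.2% and 27.4% in CF-KI and 6.44%, 24.1% and 36.0% in Control, and 3.99% and 7.47% of nuclei were under 5%. Endothelial-like nuclei under 5% were 46.9% and 31.7%. Across cardiomyocyte-like nuclei the Spearman correlation of the Malat1 share with the mitochondrial percent was −0.82 in CF-KI (4167 nuclei) and −0.54 in Control (2531), and with the non-mitochondrial UMI total it was 0.77 and 0.58; these nuclei share a library and differ in depth.

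**Figure D3:**
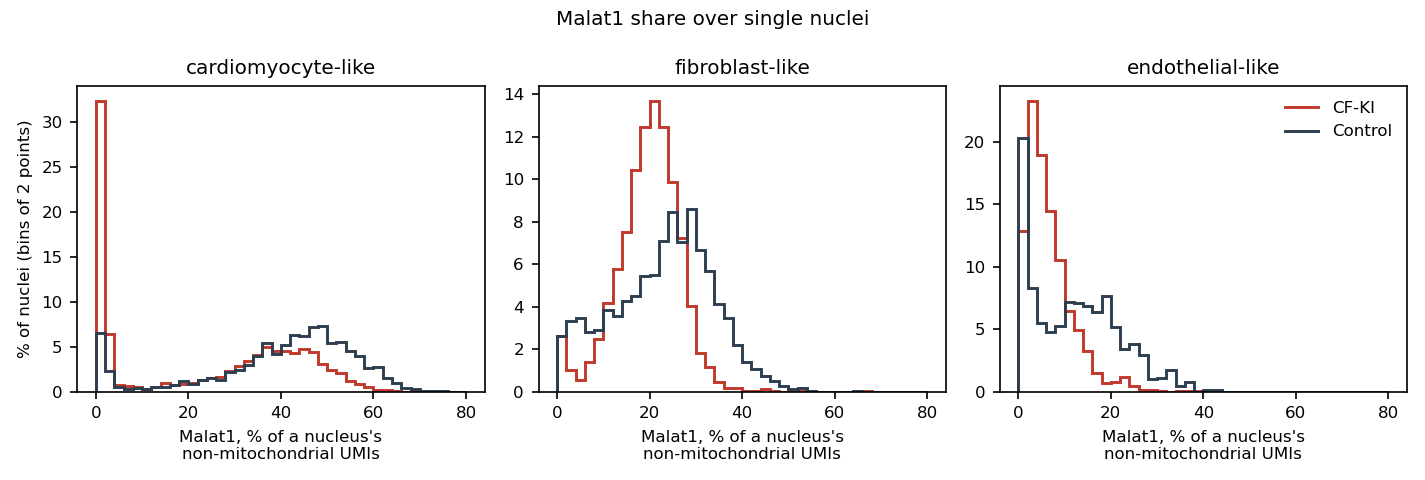
Distribution over single nuclei of the Malat1 share of non-mitochondrial UMIs, as percent of the nuclei of the class and library, on linear axes. Cardiomyocyte-like nuclei form a group near 0 beside the main group, with 39.0% of CF-KI and 9.17% of Control nuclei under 5%.

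Away from cardiomyocytes the mitochondrial share went with smaller differences. Nuclei over 5% mitochondrial had less Malat1 than nuclei at most 5% in all 8 classes that allowed the comparison in CF-KI and in 7 of 9 in Control, the exceptions being endothelial-like (0.020, 0.0014 to 0.038) and lymphatic endothelial-like nuclei (0.16, 0.12 to 0.20) of Control. In cardiomyocyte-like nuclei the log2 ratio of over to at most 5% was −1.09 in CF-KI and −1.59 in Control, and in fibroblast-like nuclei it was −0.35 and −0.52. Fibroblast-like nuclei went from 29.98% at most 1% (195 nuclei) to 25.3%, 18.0% and 17.7% over 20 to 50% in Control. In CF-KI they went from 24.1% over 1 to 5% (62 nuclei) to 18.9%, 19.5% and, over 50%, 3.38% (84 nuclei). At matched mitochondrial share CF-KI fibroblast-like nuclei stood at −0.069 (over 1 to 5%), 0.077 (over 5 to 20%) and 0.14 (over 20 to 50%) against Control. The lower share of the whole class was thus not seen in 2 of these 3 ranges. Of the class and mitochondrial ranges with at least 20 nuclei in both libraries, 26 in all, Malat1 was higher in CF-KI in 8, lower in 17 and within its interval in 1. All 3 macrophage-like ranges were among the 8 (0.13, 0.24 and 0.38), whereas all 3 endocardial-like (−0.34, −0.40 and −0.39) and all 3 mesothelial-like ranges (−0.30, −0.14 and −0.11) were lower. In endothelial-like nuclei, where the whole class was past 1.5-fold lower, the ranges gave −0.46, −0.79 and, over 20 to 50% with 26 Control nuclei, 0.38. In the Myh11-led cluster, also past 1.5-fold as a whole, the ranges gave −0.32 (−0.36 to −0.28) over 1 to 5%, with 22 CF-KI nuclei, and −0.29 (−0.32 to −0.26) over 5 to 20%. Both were lower in CF-KI and neither was past 1.5-fold. B cell-like nuclei had −0.97 (−1.02 to −0.93) over 5 to 20% and 0.034 (−0.042 to 0.11) over 20 to 50%. That class was not uniform. With clustering at a finer Leiden resolution of 1.5, a setting added after seeing the data, 164 of its 231 nuclei (44 of CF-KI and 120 of Control) lay in a B cell-like cluster, and 66 (31 and 35) in an unnamed cluster led by Ccl5, Klra4, Ncr1 and Gzma. In that B cell-like cluster Malat1 took 8.03% in CF-KI and 17.5% in Control, a ratio of −1.13 (−1.17 to −1.09), whereas in the Ccl5-led cluster it took 6.81% and 6.15%, a ratio of 0.15 (0.095 to 0.20). Within fibroblast-like clusters the ratios were −0.36 in cluster 1, −0.18 in cluster 2 and 0.095 in cluster 7.

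Neat1 was most abundant in adipocyte-like and cardiomyocyte-like nuclei, and it was higher in CF-KI than in Control in macrophage-like and fibroblast-like nuclei and lower in endothelial-like nuclei. Its share was 0.653% in CF-KI and 0.685% in Control in adipocyte-like nuclei, and 0.547% and 0.523% in cardiomyocyte-like nuclei. Macrophage-like nuclei held 0.316% and 0.233%, and fibroblast-like nuclei 0.188% and 0.145%. Airway epithelial-like nuclei of Control held 0.381%. Lymphatic endothelial-like (0.157% and 0.162%), mesothelial-like (0.170% and 0.146%) and endocardial-like nuclei (0.156% and 0.126%) lay close together. In CF-KI their intervals overlapped, and in Control endocardial-like nuclei lay below the other two. B cell-like nuclei held 0.120% and 0.128%, the Myh11-led cluster 0.100% and 0.0924%, and endothelial-like nuclei 0.0479% and 0.0730%. Erythroid-like barcodes of CF-KI held 0.0114%, on 34 UMIs. Haemoglobin mRNA, 85.9% of their UMIs, is in that denominator, so the share cannot be ranked with those of the nucleus classes.

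The log2 ratio of Neat1 was 0.44 (0.36 to 0.52) in macrophage-like and 0.37 (0.32 to 0.43) in fibroblast-like nuclei, and 0.42 and 0.34 with Malat1 left out of the denominator. Among fibroblast-like nuclei at most 5% mitochondrial it was 0.64. Endocardial-like nuclei had 0.31 (0.21 to 0.41), or 0.21 without Malat1. Within that class cluster 12, led by the valve gene Wnt9b and Hapln1, held 0.182% in CF-KI and 0.0694% in Control, a ratio of 1.39 (1.12 to 1.67) from 125 and 113 nuclei, while cluster 4 had 0.087 (−0.025 to 0.20). In mesothelial-like nuclei the ratio was 0.21 (0.096 to 0.33), and without Malat1 0.084 (−0.034 to 0.20). In endothelial-like nuclei it was −0.61 (−0.75 to −0.47), or −0.66 without Malat1. That was the only class in which Neat1 was past 1.5-fold, next to the 7.53% of genes given above. At matched mitochondrial share the endothelial-like ratio was −0.18 (−0.49 to 0.13) over 1 to 5%, −0.81 (−1.02 to −0.60) over 5 to 20% and −0.51 (−1.13 to 0.15) over 20 to 50%, so only the middle range, with 1156 of the CF-KI nuclei, had an interval clear of 0. In the other 4 classes, cardiomyocytes apart, intervals held 0: adipocyte-like −0.070, lymphatic endothelial-like −0.046, B cell-like −0.088 and the Myh11-led cluster 0.12. With Malat1 left out the adipocyte-like ratio was −0.14 (−0.25 to −0.034).

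In cardiomyocyte-like nuclei as a whole the direction of Neat1 depended on the denominator and on the nuclei counted. Its log2 ratio was 0.065 (0.042 to 0.088) with all non-mitochondrial UMIs and −0.19 (−0.21 to −0.16) with Malat1 left out. A scaling by TMM, which centres the ratios of most genes, moved all cardiomyocyte-like ratios by −0.20 and gave −0.13. Within ranges of mitochondrial share the sign did not depend on Malat1: 0.48 (0.41 to 0.54) at most 1%, 0.32 (0.27 to 0.37) over 1 to 5% and 0.78 (0.66 to 0.91) over 5 to 20%, then −0.50 (−0.75 to −0.25) over 20 to 50% and −0.63 (−1.08 to −0.17) over 50%. The same ratios without Malat1 were 0.41, 0.37, 0.97, −0.60 and −0.68. The shares behind them went from 0.763% at most 1% through 0.673%, 0.545% and 0.116% to 0.0315% over 50% in CF-KI, and from 0.547% through 0.540%, 0.317% and 0.163% to 0.0488% in Control. Cluster 0 had 0.667% and 0.553% (0.27), cluster 5 had 0.0851% and 0.110% (−0.36) and cluster 14 had 0.180% and 0.227% (−0.33).

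**Figure D4:**
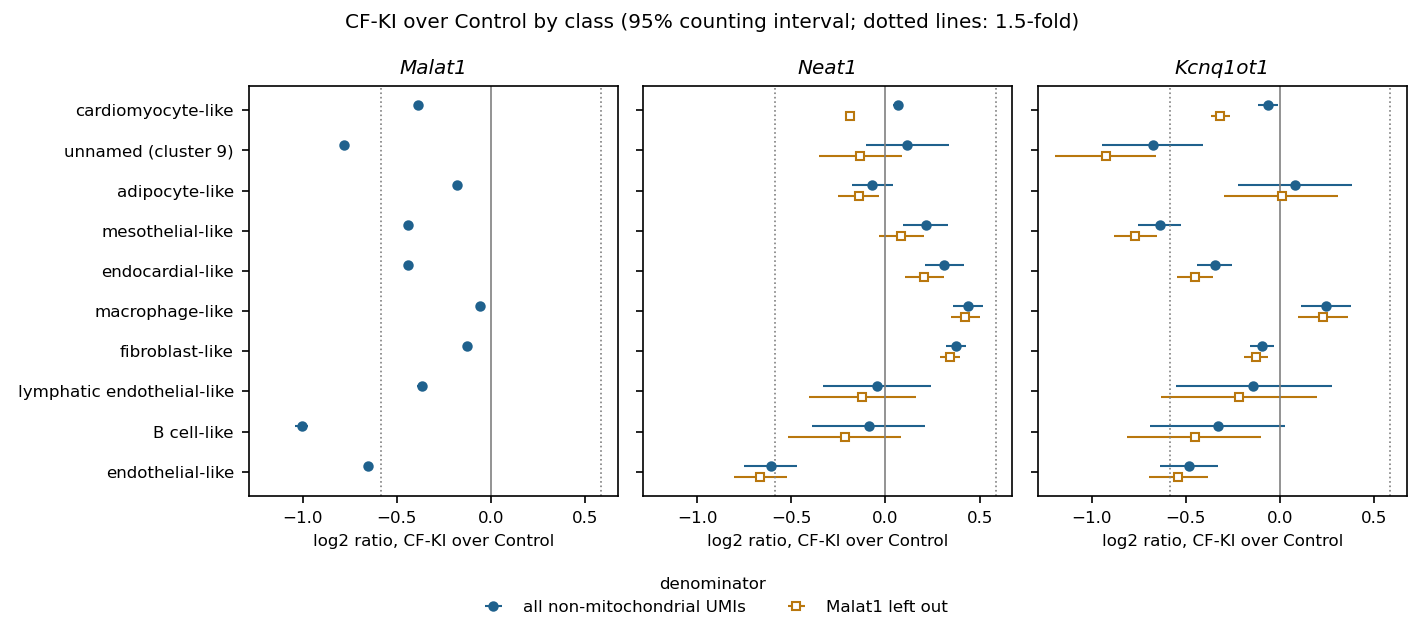
Log2 ratio of CF-KI over Control for Malat1, Neat1 and Kcnq1ot1 in the 10 classes compared, with 95% counting intervals; filled points use all non-mitochondrial UMIs, open squares leave Malat1 out of the denominator, and dotted lines mark 1.5-fold. All Malat1 ratios are below 0, Neat1 runs from −0.61 in endothelial-like to 0.44 in macrophage-like nuclei, and the Neat1 ratio of cardiomyocyte-like nuclei changes sign, from 0.065 to −0.19, when Malat1 is left out or when ratios are centred by TMM.

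The higher Neat1 of CF-KI macrophage-like nuclei was present in each mitochondrial range that could be compared, with ratios of 0.98 (0.83 to 1.13) over 1 to 5%, 0.62 (0.49 to 0.75) over 5 to 20% and 0.55 (0.13 to 1.00) over 20 to 50%. In fibroblast-like nuclei the ratios were 0.67 (0.44 to 0.89), 0.53 (0.46 to 0.59) and −0.012 (−0.29 to 0.28). All 3 fibroblast-like clusters had more Neat1 in CF-KI, by 0.17 in cluster 1, 0.33 in cluster 2 and 0.54 in cluster 7. With Malat1 left out the ratios were 0.068 (−0.038 to 0.17), 0.28 and 0.56, so the interval of cluster 1 then held 0. Over all 26 ranges Neat1 was higher in CF-KI in 13, lower in 3 and within its interval in 10, and the counts were also 13 and 3 without Malat1. Beside these ratios, free RNA moved with the library. The 10 cardiomyocyte mRNAs summed to 20908 CPM (counts scaled to a fixed non-mitochondrial total) in CF-KI fibroblast-like nuclei and 5179 in Control, and to 16899 and 6764 in macrophage-like nuclei. Haemoglobin mRNA took 0.207% and 0.0443% of UMIs in fibroblast-like nuclei. The airway transcript Scgb1a1 was counted 4 times in CF-KI and 1206 times in Control cardiomyocyte-like nuclei. What part carried-over RNA had in the Neat1 ratios was not tested.

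Like Malat1, Neat1 took a smaller share in nuclei over 5% mitochondrial. In cardiomyocyte-like nuclei the log2 ratio of over to at most 5% was −1.03 in CF-KI and −1.44 in Control, and −1.52 and −2.11 with Malat1 left out. In macrophage-like nuclei it was −0.55 and −0.34, and in fibroblast-like nuclei −0.43 and −0.26. Neat1 was lower over 5% in 7 of 8 classes of CF-KI and in 5 of 9 of Control, and the intervals of the others held 0. With each nucleus thinned to 300 non-mitochondrial UMIs, 51.1% of cardiomyocyte-like nuclei held a Neat1 UMI in CF-KI and 68.1% in Control (62.7% and 91.3% unthinned, at medians of 1083 and 2162 UMIs; 185 and 11 nuclei were too shallow). Thinned shares were 54.1% and 48.9% in macrophage-like, 40.04% and 33.96% in fibroblast-like, and 15.5% and 19.9% in endothelial-like nuclei. Erythroid-like barcodes of CF-KI, which lack a nucleus or are losing it, gave 22.6% unthinned at a median of 3381 UMIs. Since haemoglobin fills most of their UMIs, they were thinned to 300 UMIs that were neither mitochondrial nor haemoglobin, which left out 27 of 84, and 17.5% (8.75% to 29.9%) of the other 57 held a Neat1 UMI. The endothelial-like shares lay within that interval, as did those of B cell-like nuclei (20% and 18.6%) and of the Myh11-led cluster (17.1% and 21.25%). So did the CF-KI shares of lymphatic endothelial-like nuclei (28.8%, against 40.2% in Control) and of platelet or megakaryocyte-like barcodes (22.3%). Shares within the interval are not read as expression. The macrophage-like, fibroblast-like and cardiomyocyte-like shares lay above it. The interval comes from CF-KI barcodes only, and Control has none of its own.

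Kcnq1ot1 was highest in mesothelial-like and endocardial-like nuclei and lowest in endothelial-like nuclei, and it was lower in CF-KI in 6 of 10 classes. Its share was 0.143% in CF-KI and 0.222% in Control in mesothelial-like nuclei, and 0.151% and 0.192% in endocardial-like nuclei; the intervals of these neighbours overlapped in CF-KI. Airway epithelial-like nuclei of Control held 0.214%, which overlapped with the mesothelial-like interval. Cardiomyocyte-like (0.107% and 0.112%) and fibroblast-like nuclei (0.106% and 0.114%) did not differ beyond their intervals in either library. Macrophage-like nuclei held 0.106% and 0.0892%, B cell-like 0.0815% and 0.102%, adipocyte-like 0.0910% and 0.0860%, and lymphatic endothelial-like 0.0734% and 0.0810%. The Myh11-led cluster held 0.0552% and 0.0882%, and endothelial-like nuclei 0.0417% and 0.0583%. Erythroid-like barcodes of CF-KI held 0.00504%, on 15 UMIs, again with haemoglobin in the denominator.

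Between libraries the Kcnq1ot1 ratio was −0.67 (−0.95 to −0.41) in the Myh11-led cluster and −0.64 (−0.75 to −0.52) in mesothelial-like nuclei, the 2 classes in which it was past 1.5-fold. In mesothelial-like nuclei 7.38% of 2725 genes were lower by that much. The Myh11-led ratio was not the same along the mitochondrial ranges. It was −1.02 (−1.99 to −0.19) over 1 to 5%, on 12 UMIs in 22 CF-KI nuclei, and 0.10 (−0.40 to 0.64) over 5 to 20%, where 248 of the 316 CF-KI nuclei lay. Endothelial-like nuclei had −0.48 (−0.64 to −0.33), endocardial-like −0.35 (−0.44 to −0.25), fibroblast-like −0.095 (−0.16 to −0.031) and cardiomyocyte-like −0.064 (−0.12 to −0.013). Among nuclei at most 5% mitochondrial the last ratios were −0.42 and, with the sign changed, 0.13, and among nuclei with at least 500 genes the sign changed in both, to 0.067 and 0.11. Macrophage-like nuclei went the other way, with 0.24 (0.11 to 0.38). With Malat1 left out the ratios were −0.93, −0.77, −0.54, −0.45, −0.13, −0.32 and 0.23 in the same order. The intervals of adipocyte-like, B cell-like and lymphatic endothelial-like nuclei held 0; without Malat1 that of B cell-like nuclei no longer did, at −0.45.

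Within mitochondrial ranges Kcnq1ot1 was higher in CF-KI in 5, lower in 11 and within its interval in 10 of 26. Cardiomyocyte-like nuclei again changed sign: 0.22 (0.067 to 0.37) at most 1%, −0.12 (−0.22 to −0.015) over 1 to 5%, 0.54 (0.30 to 0.78) over 5 to 20%, −1.49 (−2.05 to −0.94) over 20 to 50% and −0.76 (−1.72 to 0.31) over 50%. The shares were 0.132%, 0.127%, 0.126%, 0.0176% and 0.00653% in CF-KI and 0.113%, 0.138%, 0.0868%, 0.0494% and 0.0111% in Control. Macrophage-like nuclei had −0.31 (−0.64 to −0.0032) over 1 to 5%, with 35 CF-KI nuclei, and 0.98 (0.76 to 1.21) over 5 to 20%. Mesothelial-like nuclei had −0.72, −0.43 and −0.16, of which the last interval held 0. Endocardial-like ranges had −0.16, −0.055 and 0.50, all with intervals that held 0, so no range had an interval clear of 0. By cluster the endocardial-like ratio was −0.47 (−0.57 to −0.37) in cluster 4 and 0.18 (−0.15 to 0.51) in cluster 12. The fibroblast-like ratio was −0.13 (−0.26 to −0.0040) in cluster 1, −0.071 (−0.34 to 0.21) in cluster 2 and 0.32 (0.19 to 0.44) in cluster 7. Cardiomyocyte-like nuclei had 0.15 (0.093 to 0.20) in cluster 0 and −0.53 (−0.84 to −0.21) in cluster 5. The atrial cluster 14 had −1.12 (−1.65 to −0.62). With Malat1 left out these ratios were 0.0047 (−0.048 to 0.057), −0.56 and −1.49. The positive sign in cluster 0 thus depended on the denominator. The ratio of over to at most 5% was −0.75 in CF-KI and −1.05 in Control cardiomyocyte-like nuclei. Of the 8 classes of CF-KI, cardiomyocyte-like included, 6 had Kcnq1ot1 intervals that held 0. Kcnq1ot1 was higher over 5% in CF-KI macrophage-like nuclei (0.32, 0.018 to 0.64), and with Malat1 left out the ratio was 0.25 (−0.054 to 0.57). It was lower over 5% in 5 further classes of Control, such as macrophage-like (−0.82) and endocardial-like (−0.53). In nuclei thinned to 300 UMIs, 34.2% and 44.7% of mesothelial-like, 32.3% and 41.0% of endocardial-like, 22.8% and 25.2% of fibroblast-like and 18.2% and 26.7% of cardiomyocyte-like nuclei held a Kcnq1ot1 UMI. Of the 57 erythroid-like barcodes of CF-KI thinned to 300 UMIs other than haemoglobin 2 did (3.51%, 0.428% to 12.1%). The CF-KI shares of the Myh11-led cluster (11.7%) and of endothelial-like nuclei (11.5%) lay within that interval and are not read as expression. Their Control shares were 20.8% and 15.2%, above an interval that comes from CF-KI barcodes. Control had only 5 erythroid-like barcodes and so no such interval of its own. Expression in Control but not in CF-KI cannot be read from this. Whether UMIs were assigned by strand is not given in the sources used here, and without strand Kcnq1ot1 and Kcnq1 intron reads cannot be told apart; Kcnq1 itself had 66 and 55 UMIs in cardiomyocyte-like nuclei.

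Snhg11 was rare, with 33 UMIs in CF-KI and 69 in Control, and 40 of the 102 UMIs (39.2%) fell in the 253 adipocyte-like nuclei, which were 1.07% of the 23539 kept. Of the adipocyte-like nuclei 9 of 88 in CF-KI (10.2%) and 20 of 165 in Control (12.1%) held an Snhg11 UMI, at medians of 1343 and 1910 non-mitochondrial UMIs, and no nucleus held more than 5. The share was 0.00598% in CF-KI (9 UMIs) and 0.00926% in Control (31 UMIs), a log2 ratio of −0.63 (−1.89 to 0.47). Cardiomyocyte-like nuclei held 15 UMIs in 11 nuclei and 24 in 15, a ratio of −0.46 (−1.49 to 0.53), and 0.264% and 0.593% of them held a UMI. In fibroblast-like nuclei all 7 UMIs of CF-KI came from 1 nucleus, and Control had 2 in 2 nuclei. Airway epithelial-like nuclei held 4 UMIs, mesothelial-like 1 and 4, macrophage-like 1 and 2, and endothelial-like 0 and 2. None was found in endocardial-like, B cell-like, lymphatic endothelial-like, Myh11-led, erythroid-like or platelet or megakaryocyte-like barcodes. With 0 counts the limit of 3 UMIs stood at 2.89 and 2.62 CPM in endocardial-like nuclei and at 25.2 and 14.2 in B cell-like nuclei, so absence cannot be read from the small classes. Thinned to 300 UMIs, 2.27% and 2.42% of adipocyte-like nuclei held a UMI. No difference of Snhg11 between the libraries was detectable at this depth.

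The first 3 RNAs were linked over single nuclei mainly in CF-KI cardiomyocytes. Across the 4167 cardiomyocyte-like nuclei of CF-KI the Spearman correlation of the shares was 0.71 for Malat1 and Neat1, 0.55 for Malat1 and Kcnq1ot1 and 0.58 for Neat1 and Kcnq1ot1. Across the 2531 of Control it was 0.059, 0.060 and 0.22. In fibroblast-like nuclei the highest of these values was 0.14, for Malat1 and Neat1 in CF-KI. These values are descriptions of nuclei from 1 library each. In CF-KI cardiomyocyte-like nuclei all 3 shares also went with depth (0.77, 0.74 and 0.57 for Malat1, Neat1 and Kcnq1ot1 with non-mitochondrial UMIs) and against mitochondrial percent (−0.82, −0.74 and −0.58).

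Over the 23 profiles of a class in a library with at least 50 nuclei, Pearson's correlation of log2(CPM + 1) was 0.84 between Malat1 and Neat1, 0.84 between Malat1 and Kcnq1ot1 and 0.68 between Neat1 and Kcnq1ot1. Among 7898 genes with at least 500 UMIs the profiles most like Malat1 were those of BC005561 (0.96), Zfp397 (0.96), Ccnt2, a cyclin of the elongation factor P-TEFb (0.95), the splicing factor gene Luc7l2 (0.95) and 4632427E13Rik (0.94). Those most like Neat1 were 4732440D04Rik (0.95), Ttc19, which acts in respiratory complex III (0.94), Dlst, a subunit of the oxoglutarate dehydrogenase complex (0.93), the mitochondrial protease gene Afg3l2 (0.92) and Abhd18 (0.92). Those most like Kcnq1ot1 were Tnrc6a, of the microRNA silencing complex (0.95), the transcription factor gene Tef (0.93), Zfp809 (0.93), 2610037D02Rik (0.92) and the long noncoding RNA Tug1 (0.91). For Snhg11 they were Adrb3, the beta-3 adrenergic receptor (0.89), Acsl1 (0.87), Gpam (0.86), Plin1, which coats lipid droplets (0.86), and Fam13a (0.85), but its own profile rests on 102 UMIs. The profiles share libraries, and paired profiles of a class are not independent.

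Proteins of the bodies built on these RNAs and genes around them were counted between libraries among genes with at least 20 UMIs in the class. In cardiomyocyte-like nuclei 29.1% of 12608 such genes were past 1.5-fold higher in CF-KI and 7.73% lower, with a median log2 ratio of 0.20 (−0.058 with Malat1 left out). With Malat1 left out of the denominator 19.6% were higher and 17.3% lower, and counts of the lists below changed accordingly. In fibroblast-like nuclei 11.7% of 12621 were higher and 9.69% lower, with a median of −0.030. Of 18 nuclear speckle protein genes none was past 1.5-fold higher and 1 lower in cardiomyocyte-like nuclei, with a median of −0.32, and none either way in fibroblast-like nuclei, with a median of −0.16. With Malat1 left out, 9 of the 18 were past 1.5-fold lower and none higher in cardiomyocyte-like nuclei, with a median of −0.57, and 1 was lower in fibroblast-like nuclei. The lowest in cardiomyocyte-like nuclei were the splicing factor gene Srsf6 (−0.65), Luc7l3 (−0.50) and the splicing kinase gene Clk1 (−0.47), and the highest were Pnn (0.19), the helicase gene Ddx39b (0.077) and Son (0.034). In fibroblast-like nuclei they were Srsf11 (−0.57), Luc7l3 (−0.45) and Srsf6 (−0.36) against Ddx39b (0.32), Son (0.22) and Pnn (0.010). Of 14 paraspeckle protein genes 2 were past 1.5-fold higher and 1 lower in cardiomyocyte-like nuclei, with a median of 0.024, and 0 and 1 in fibroblast-like nuclei, with a median of −0.16. Leaving Malat1 out gave none higher and 3 lower in cardiomyocyte-like nuclei, with a median of −0.23. The core paraspeckle gene Sfpq was at −0.55 (−0.65 to −0.45) in cardiomyocyte-like and −0.52 (−0.64 to −0.40) in fibroblast-like nuclei. Ewsr1 was at −0.69 and −0.47 and Dazap1 at −0.52 and −0.60. The highest were Hnrnpk (0.71 and 0.12), Hnrnpa1 (0.60 and 0.23) and, in cardiomyocyte-like nuclei, Rbm14 (0.40), in fibroblast-like nuclei Taf15 (0.086).

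Among 20 other nuclear long noncoding RNAs with enough UMIs, of 28 in the files, 1 was past 1.5-fold higher and 2 lower in cardiomyocyte-like nuclei (median 0.017), and 1 and 1 in fibroblast-like nuclei (median −0.060). Without Malat1 in the denominator 1 was higher and 5 were lower in cardiomyocyte-like nuclei (median −0.24). In cardiomyocyte-like nuclei the imprinted Peg13 was at 1.81 on 69 and 23 UMIs, Dnm3os at 0.40 and the Xist regulator Jpx at 0.32, against Rmst (−0.86), Firre, an X-linked architectural RNA (−0.71), and Snhg14 (−0.48). In fibroblast-like nuclei Pvt1 (0.60), Oip5os1 (0.38) and Jpx (0.21) stood highest. There the smooth muscle RNA Carmn (−0.86), Firre (−0.55) and the imprinted Meg3 (−0.54, on 4463 and 8194 UMIs) stood lowest. Of 17 other small nucleolar RNA host genes 7 were past 1.5-fold higher and 1 lower in cardiomyocyte-like nuclei, with a median of 0.45, and 1 and 1 in fibroblast-like nuclei, with a median of 0.18. With Malat1 left out 3 were higher and 2 lower in cardiomyocyte-like nuclei, with a median of 0.20. Snhg15 (1.25), Snhg6 (1.24) and Zfas1 (1.06) led in cardiomyocyte-like nuclei and Snhg10 (−1.70, on 5 and 19 UMIs), Snhg17 (−0.40) and Snhg9 (−0.21) were lowest. In fibroblast-like nuclei Snhg12 (0.73), Snhg4 (0.57) and Snhg6 (0.57) stood against Snhg9 (−0.86), Snhg20 (−0.51) and Snhg10 (−0.43).

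Of the 14 genes of the Kcnq1 imprinted domain 9 had enough UMIs. In cardiomyocyte-like nuclei 3 were past 1.5-fold higher and 2 lower (median 0.29), and in fibroblast-like nuclei 1 and 4 (median −0.44); these counts were the same with Malat1 left out, with a median of 0.041 in cardiomyocyte-like nuclei. The growth inhibitor Cdkn1c, a gene that Kcnq1ot1 is known to silence on the paternal copy, was at 1.18 (0.54 to 1.84) in cardiomyocyte-like nuclei on 62 and 32 UMIs. Cd81, a tetraspanin gene, was at 1.19 (1.05 to 1.33) there and at −0.063 (−0.15 to 0.019) in fibroblast-like nuclei. Tnfrsf23 was at 1.37 on 20 and 9 UMIs in cardiomyocyte-like and at −0.81 in fibroblast-like nuclei, Tssc4 at −0.67 and −0.76, and Tspan32 at −0.90 and −1.25. Cars was at −0.24 in cardiomyocyte-like nuclei and Nap1l4 at 0.37 in fibroblast-like nuclei, where Kcnq1 had 17 and 3 UMIs (2.84, 1.05 to 5.25). Of 6 counted neighbours of Malat1, Neat1 and Snhg11 none was past 1.5-fold in cardiomyocyte-like nuclei (median 0.29, or 0.036 with Malat1 left out) and 1 was lower in fibroblast-like nuclei (median −0.19). That gene was Ltbp3, a binding protein of latent TGF-beta, at −0.86 (−1.06 to −0.67) in fibroblast-like and −0.29 (−0.61 to 0.034) in cardiomyocyte-like nuclei. Frmd8 was at 0.042 and 0.30, Ehbp1l1 at 0.33 and 0.28 and Slc25a45 at −0.45 in fibroblast-like nuclei, while near Snhg11 Ralgapb was at −0.13 and 0.35 and Adig at −0.041 in cardiomyocyte-like nuclei.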

How the data were processed

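Single nuclei of mouse heart were measured in 2 libraries made with the 10x 3′ v3 kit. The deposited matrices hold whole UMI counts per gene and barcode, made by the authors with Cell Ranger 6.1.1 per the file headers and the submitters' processing notes, which name the build mm10. Whether intron reads or strand were used in counting is not given in the sources used here. Of 32285 counted features 32158 (99.6%) matched GENCODE vM21. Features with the same symbol were summed.

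Barcodes with at least 200 genes were kept, with no mitochondrial limit, after removal of doublets predicted in each library by the Scrublet method of scanpy 1.11.5. Both libraries were clustered together (2000 variable genes without the 4 RNAs, the gene lists, mitochondrial and ribosomal protein genes, 30 components, 15 neighbours, Leiden resolution 0.8 with leidenalg 0.10.2) under Python 3.11.15. Clusters were named from marker lists. UMIs were summed per class, library and range of mitochondrial percent, and ranges with under 20 nuclei were not compared. The total was 13935983 non-mitochondrial UMIs in CF-KI and 15921080 in Control. With 1 library in each group no test was run. The sums were scaled alternatively by TMM (edgeR 4.0.16) and by median-of-ratios size factors (DESeq2 1.42.0), with no model fitted. The script was tested on simulated data.

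The members and lists were chosen with earlier results of these data known. Named genes were the 4 RNAs, the 5 genes most like each, and the 3 highest and 3 lowest ratios of each list. The values of 1 gene that this rule names are not reported here. Sequences were read from the GENCODE transcripts of GRCm38. Biotypes of RefSeq were taken from its gene table.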

Additional observations from a re-analysis of the deposited data

Results flagged for a closer look

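In macrophage-like nuclei Neat1 was higher in CF-KI by a log2 ratio of 0.44, whereas in endothelial-like nuclei it was lower, at −0.61. Kcnq1ot1 differed in direction between macrophage-like nuclei (0.24) and the cluster led by Myh11 (−0.67). In thinned nuclei the endothelial-like shares with a Neat1 UMI lay within the interval of the erythroid-like barcodes of CF-KI. So did the CF-KI share of the Myh11-led cluster with a Kcnq1ot1 UMI. Within cardiomyocyte-like nuclei Malat1 was higher in CF-KI at 5 to 20% mitochondrial UMIs (0.48) and lower over 50% (−1.26). Neat1 went the same way at these ends, with 0.78 and −0.63. Kcnq1ot1 was higher at 5 to 20% (0.54) and lower at 20 to 50% (−1.49). Each pair stands out because the counting intervals lie on opposite sides of 0; with 1 library in each group the differences were not tested.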

How the results depend on the processing

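Under other settings 54 of 113 values stayed close to those reported, 50 moved with the same sign and 9 moved and changed sign. Close meant within the counting interval of the value reported. For 4 counts of genes past 1.5-fold, which have no interval, it meant within 1.5-fold of the count reported, and 2 of them were. Snhg11 in cardiomyocyte-like nuclei changed sign within its interval, from −0.46 to 0.24 with doublets kept. No paired analysis was possible because each group is 1 library. In cardiomyocyte-like nuclei the log2 ratio of CF-KI over Control was −0.39 for Malat1, 0.065 for Neat1 and −0.064 for Kcnq1ot1. With at most 5% mitochondrial UMIs these were −0.13, 0.32 and 0.13, with at most 20% they were −0.19, 0.26 and 0.14, and with at least 500 genes −0.22, 0.26 and 0.11. With doublets kept Malat1 was −0.40 and Neat1 0.041. TMM gave −0.59, −0.13 and −0.26, median-of-ratios factors −0.61, −0.16 and −0.29, Malat1 left out of the denominator −0.64, −0.19 and −0.32, and thinning to 300 UMIs −0.70, −0.37 and −0.55. So under these last 4 settings Malat1 was past 1.5-fold, only just under TMM, and Neat1 changed sign, while Kcnq1ot1 kept its sign. Kcnq1ot1 changed sign with at most 5%, with at most 20% and with at least 500 genes. Without cluster 5, a setting chosen after seeing the data, the values were −0.18, 0.28 and, with the sign of Kcnq1ot1 changed, 0.13. In fibroblast-like nuclei (main values −0.13, 0.37 and −0.095) at most 5% gave −0.097, 0.64 and −0.42, and at least 500 genes −0.10, 0.48 and, with the sign changed, 0.067. At most 20% gave 0.43 for Neat1 and −0.010 for Kcnq1ot1. Thinning gave −0.20, 0.32 and −0.23. Without cluster 2, also chosen after seeing the data, they were −0.37, 0.27 and −0.017. Malat1 there was −0.13 with doublets kept, −0.14 and −0.13 at Leiden resolutions 0.4 and 1.5, −0.12 with median-of-ratios factors and −0.16 with Malat1 left out. For nuclei over against at most 5% mitochondrial in Control fibroblast-like nuclei (−0.52, −0.26 and −0.33) a boundary of 2% gave −0.58 for Malat1 and −0.41 for Neat1, and 10% gave −0.30, −0.10 and −0.11. Malat1 left out gave −0.67, −0.41 and −0.48, thinning −0.47 for Malat1 and −0.13 for Neat1, and doublets kept −0.52 for Malat1. In B cell-like nuclei Malat1 was −1.01, and −1.13 at Leiden resolution 1.5. In cardiomyocyte-like nuclei 2671 genes were past 1.5-fold (2140 higher and 531 lower). TMM gave 2678 (1535 and 1143), and leaving out cluster 5 gave 1862. A minimum of 20 UMIs in place of 100 gave 4640, and no minimum 9154. Snhg11 stayed within its interval in all 10 cardiomyocyte-like and 8 fibroblast-like settings that gave a value; with 0 UMIs in a library no ratio could be given. Apart from settings that change the denominator or leave out nuclei by construction, the cause of these shifts was not tested. Ratios of RNAs with few UMIs are limited by counting, above all those of Snhg11.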
